A study of Mus musculus with 4 samples.

Results

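The proteasome subunit genes were the protein-coding genes whose symbol is Psma, Psmb, Psmc or Psmd followed by digits only, without the inducible catalytic subunits Psmb8, Psmb9 and Psmb10. This rule gave 36 of the 45777 genes in the deposited table. RNA had been sequenced from 4 cultures of C2C12 myotubes, which are fused, multinucleate muscle cells made from a mouse myoblast line, here kept in 2% horse serum. The groups were clenbuterol, a drug that stimulates β2-adrenergic receptors, with a control of its own, and EPS, read here as electrical pulse stimulation, with a control of its own. Each group held 1 library, so no value has a replicate and no test between conditions could be run. The treatment field gives 30 ng/ml clenbuterol for all 4 libraries, controls included, and group membership therefore rests on the sample titles. The group field is filled for the clenbuterol and EPS records and follows the titles. C2C12 is a single established line, and cultured myotubes have no innervation or blood supply.

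In the EPS pair the titles and the data names cross: the record with the EPS control title carries data named EPS, and the record with the EPS title carries data named as its control. Groups follow the titles here. Every EPS direction below turns round if instead the data names are correct. Total estimated counts ran from 32640884 to 35597074 per library. The 10 myotube markers had summed TPM of 28137 with clenbuterol and 28132 in its control, and of 19169 under the EPS title and 23046 under the EPS control title. Acta1 made most of the difference in the EPS pair, with 5723 under the EPS title and 9090 under the EPS control title. Mylpf alone went the other way, with 8770 under the EPS title and 8328 under the EPS control title. TPM is a transcript level corrected for transcript length and scaled to the same total in every library. The 6 markers of undifferentiated myoblasts summed to 292 TPM with clenbuterol and 212 in its control, and to 182 under the EPS title and 149 under the EPS control title. Of these, Id3 alone had 115.9 TPM with clenbuterol and 35.9 in its control. Mki67 and Myf5 were lower with clenbuterol than in its control, and Pax7, Myod1 and Id1 higher. Between the pairs, Mki67 and Myf5 were higher in both EPS-pair libraries, and Myod1, Id1 and Id3 lower. The 5 immune markers summed to between 2.89 and 5.17 TPM, and both adipocyte markers were at 0. Of the 3 endothelial markers none reached a TPM of 1, and of the 3 neural markers 1 did. The part that these differences between libraries play in the values below was not tested. In bulk libraries fewer cells of a type and less RNA per cell cannot be told apart.

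The proteasome degrades proteins that carry ubiquitin chains and is a main route of protein breakdown in wasting muscle. Its barrel-shaped core particle is built of α rings, encoded by Psma genes, which gate the entry, and of β rings, encoded by Psmb genes, which hold the proteolytic sites. A regulatory particle caps the core. Its base contains a ring of ATPases, encoded by Psmc genes, that unfolds and threads substrates, and its lid, made of Psmd products, removes ubiquitin. Because every subunit has a fixed place in the complex, the genes are known for coordinated expression, which in mammals depends in part on the transcription factor NRF1, the product of Nfe2l1, when proteasome activity falls short.

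Of the 36 genes 34 were expressed, reaching a TPM of 1 in all 4 libraries, and the other two were nearly or fully silent. Psma8, the α subunit of spermatogenic cells, had 0 counts in every library. Psmb11, the catalytic β subunit of thymic cortical epithelium, had 2 counts with clenbuterol, 3 in the clenbuterol control, 2 under the EPS title and 0 under the EPS control title. It lies on mm10 chromosome 14 at 54625310 to 54629556, beside Psmb5, the catalytic subunit of other tissues, at 54614120 to 54617995. Psmb5 had 241 TPM with clenbuterol, 238 in the clenbuterol control, 226 under the EPS title and 218 under the EPS control title.

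The 34 expressed genes were abundant. Their median TPM was 238 with clenbuterol, 245 in its control, 239 under the EPS title and 234 under the EPS control title. That median was above the level of 95% of the genes that reached a TPM of 1 in each library. Between 30 and 31 of the 34 had a TPM between 100 and 500 in any library. Together the 36 genes took 0.894% of all TPM with clenbuterol, 0.911% in its control, 0.858% under the EPS title and 0.835% under the EPS control title.

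The most abundant member was Psmc3, an ATPase of the base, on chromosome 2 at 91054016 to 91059438. It had 587 TPM with clenbuterol, 584 in its control, 473 under the EPS title and 449 under the EPS control title. Next by mean TPM came Psmb3, a non-catalytic β subunit at 426 to 472 TPM in the 4 libraries, and Psmb7, which carries the trypsin-like site. Psmb7 had 435 TPM with clenbuterol, 448 in its control, 405 under the EPS title and 393 under the EPS control title. Psmb6, which carries the caspase-like site, stood between 304 and 360.1 TPM, and Psmb5, which carries the chymotrypsin-like site, between 218 and 241 TPM. At the low end were the 3 Psmd genes whose products help to assemble the base and are absent from the finished particle. Psmd9 had 32.2 TPM with clenbuterol, 33.6 in its control, 27.5 under the EPS title and 26.9 under the EPS control title. Psmd10, also known as gankyrin, stood between 50.02 and 57.8 TPM, and Psmd5 between 54.7 and 79.0 TPM. Among the expressed structural subunits Psmd11 had the lowest mean, 119 TPM.

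**Figure D1:**
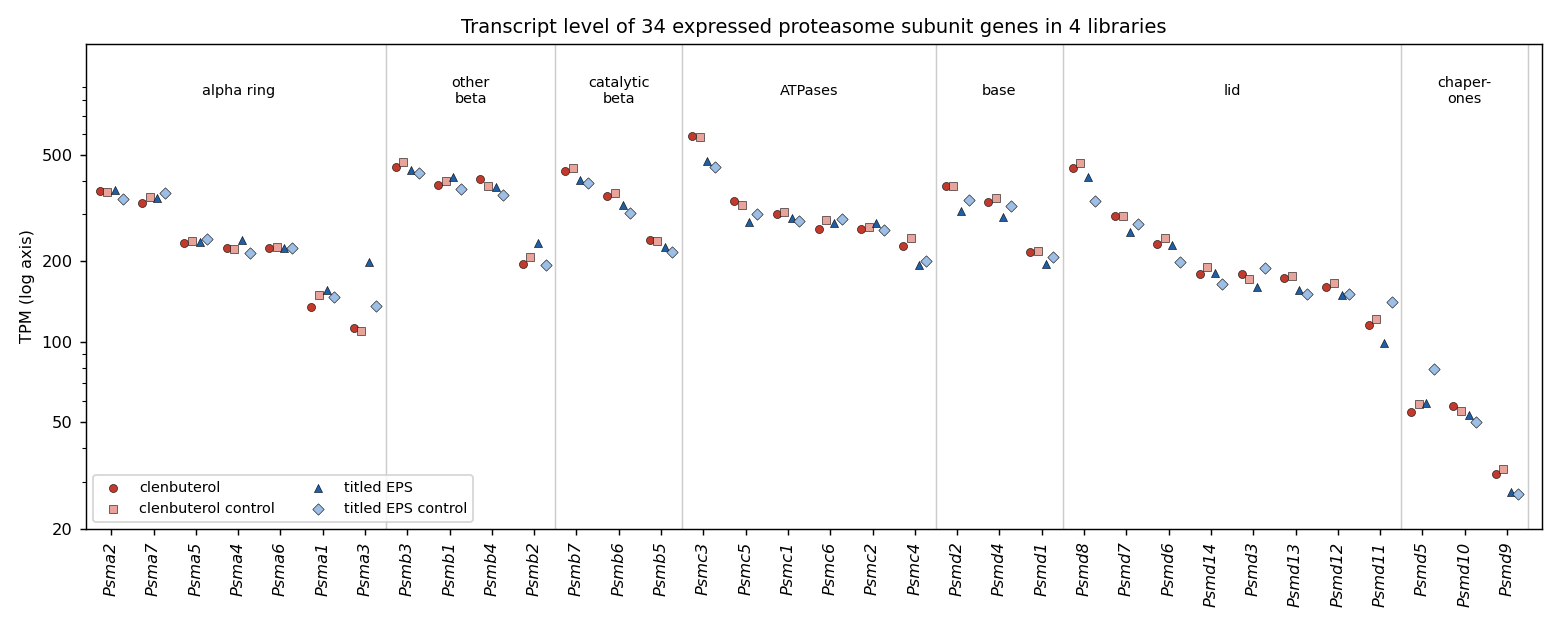
TPM on a log axis for the 34 expressed proteasome subunit genes, grouped by place in the complex and ordered within each group by mean TPM. Each marker is 1 library. The markers of a gene mostly lie close together. Psma3, Psmd11 and Psmd5 are spread the most, and Psmc3 and Psmd8 are higher in both libraries of the clenbuterol pair.

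The first comparison asked which subunit genes differ in myotubes given clenbuterol. With clenbuterol no subunit gene was at least 25% higher or at least 20% lower in TPM plus 1, the threshold used throughout. Of all 13788 genes tested, those that reached a TPM of 1 in either library, 5.74% were past the threshold on the higher side and 6.53% on the lower side. Among the 6911 that reached a TPM of 20, a limit that all expressed subunits pass and that was chosen after the data were seen, these shares were 2.59% and 1.43%. With shares this small, 0 of 34 is near the share over all such genes. In CPM, read counts scaled to a common library size by TMM factors, 0 subunit genes passed the threshold in either direction, beside 4.05% and 4.2% of all genes. Of those that reached a TPM of 20, 2.45% and 0.781% did. In both units together 0 subunit genes passed the threshold, beside 3.45% and 3.72% of all genes. At 2-fold in TPM plus 1 the count was 0 in each direction, beside 1% and 0.515% of all genes. Among those that reached a TPM of 20 the 2-fold shares were 0.492% and 0.0289%. The log2 TPM ratios of the 34 genes ran from -0.15 to 0.09, with a median of -0.03 against -0.01 for all genes tested. In sign, 10 of 34 ratios were above 0 and 24 below, beside 46.4% and 53.6% of all genes tested. In CPM this split was 16 and 18, beside 52% and 48%, so the balance of signs depended on the unit.

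The lowest and the highest TPM ratio with clenbuterol both belonged to core particle genes. Psma1, an α subunit, had 135.0 TPM with clenbuterol and 149.9 in its control, from 2428 counts with clenbuterol and 2735 in its control. It stood at 156 TPM under the EPS title and 147 under the EPS control title. Its CPM fold was 0.914, with a 95% counting interval of 0.865 to 0.965. Psmb4, a β subunit without a proteolytic site, had 406 TPM with clenbuterol and 383 in its control. Its CPM fold was 1.08 (1.04 to 1.12). These intervals are exact Clopper-Pearson bounds and cover counting error only, not the difference between cultures.

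The 3 proteolytic subunits were nearly level. CPM folds were 1.03 for Psmb5 (0.976 to 1.08), 0.986 for Psmb6 (0.949 to 1.02) and 0.984 for Psmb7 (0.949 to 1.02). Of the other members of the core, Psmb2 had 196 TPM with clenbuterol and 208 in its control, and Psma3 had 113.0 with clenbuterol and 109.7 in its control. The summed TPM of the 16 core genes was 4099 with clenbuterol and 4168 in its control.

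Among the ATPases, Psmc6 and Psmc4 were lowest, with CPM folds of 0.936 (0.903 to 0.970) and 0.942 (0.905 to 0.980), and Psmc5 was highest at 1.05 (1.01 to 1.09). Psmc6 had 264 TPM with clenbuterol and 286 in its control, Psmc4 had 228 with clenbuterol and 245 in its control, and Psmc5 had 337 with clenbuterol and 326 in its control. Psmd2, the large scaffold of the base that docks ubiquitin-like domains, had 382 TPM with clenbuterol and 381 in its control. Psmd4, a ubiquitin receptor, had 334 with clenbuterol and 344 in its control. In the lid, the deubiquitinase gene Psmd14 had 179 TPM with clenbuterol and 191 in its control, a CPM fold of 0.953 (0.913 to 0.996), and Psmd3, a scaffold subunit with 179 TPM under clenbuterol and 172 in its control, was at 1.05 (1.02 to 1.10). The assembly chaperone Psmd10 had 57.8 TPM with clenbuterol and 55.0 in its control, a CPM fold of 1.06 (0.981 to 1.155), and Psmd5 was at 0.953 (0.890 to 1.02). In all, the CPM interval lay above 1 for 3 subunit genes, below 1 for 5 and across 1 for 26. Of the 5299 genes with counts in the range of the subunit genes, 25.3% had such an interval above 1 and 12.9% below 1. With CPM scaled by library totals, 1 subunit interval lay above 1 and 12 below.

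**Figure D2:**
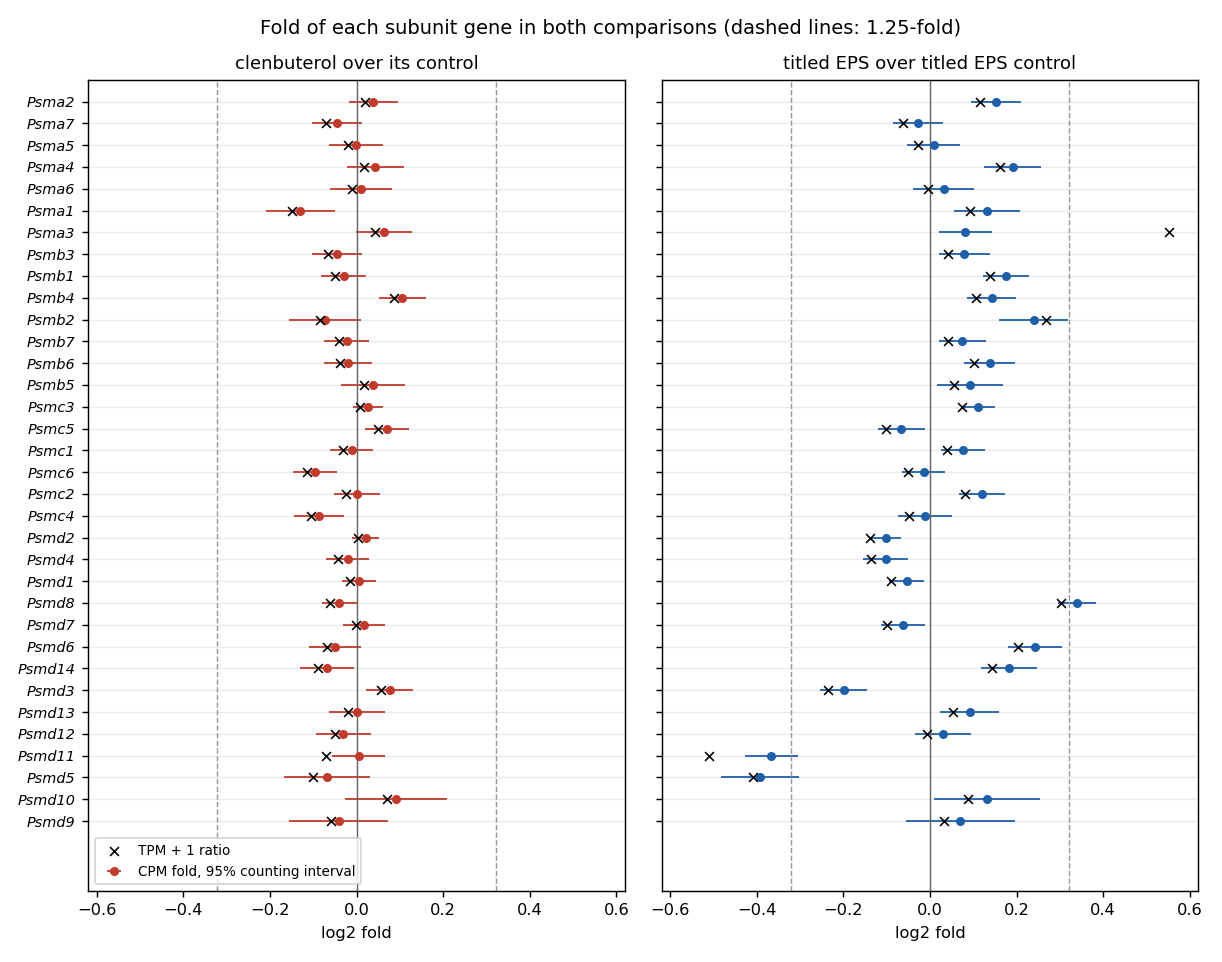
Log2 fold of each expressed subunit gene, clenbuterol over its control on the left and EPS over EPS control by title on the right. Dots are CPM folds with 95% counting intervals, crosses are ratios of TPM plus 1, and dashed lines mark 25% higher and 20% lower. With clenbuterol every marker lies between the dashed lines. In the EPS pair Psmd11 and Psmd5 lie beyond the lower line in both units, Psmd8 beyond the upper line in CPM, and Psma3 beyond it in TPM alone.

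The second comparison asked the same of the EPS pair, by title. The subunit genes spread more widely there, and 0 of them reached 2-fold in either direction, beside 0.868% of all genes higher and 1.14% lower. Among genes that reached a TPM of 20 these shares were 0.0979% and 0.462%. In TPM plus 1, Psma3 was at least 25% higher and Psmd11 and Psmd5 at least 20% lower under the EPS title. Of 13828 genes tested, 7.51% were past the threshold on the higher side and 12.6% on the lower side, so 1 and 2 of 34 are not more than the shares over all genes. Among the 7150 that reached a TPM of 20 these shares were 4% and 8.01%. In both units together 0 subunit genes were higher and 2 lower, beside 5.31% and 8.58%. The median log2 TPM ratio of the 34 genes was 0.04, against -0.02 for all genes tested. Ratios above 0 numbered 20 and ratios below 0 numbered 14, beside 45.4% and 54.6% of all genes tested. In CPM the split was 23 and 11, beside 51.4% and 48.6%.

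Psmd11 encodes the lid subunit that clamps lid and base to the core, and in human stem cells and in worms its level is known to affect proteasome assembly. It lies on mm10 chromosome 11 at 80428615 to 80473248. Its TPM was 98.7 under the EPS title and 141 under the EPS control title, with 115 under clenbuterol and 121 in the clenbuterol control. The lowest of the 4 libraries was thus the one under the EPS title, and the highest the one under the EPS control title. From 3983 counts under the EPS title and 4635 under the EPS control title the CPM fold was 0.776 (0.743 to 0.809), a smaller difference than the TPM fold of 0.700.

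Psmd5, an assembly chaperone that binds the base before the core joins, lies on chromosome 2 at 34852087 to 34870965. It had 59.3 TPM under the EPS title and 79.0 under the EPS control title, with 54.7 under clenbuterol and 58.7 in the clenbuterol control. Here 3 libraries lay together, and the one under the EPS control title stood above them. The CPM fold was 0.762 (0.716 to 0.811) on 1841 counts under the EPS title and 2180 under the EPS control title.

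Psmd8, a lid subunit and the last to join the lid in yeast, lies on chromosome 7 at 29174187 to 29180673 and differed the other way. It had 414 TPM under the EPS title and 336 under the EPS control title, with 446 under clenbuterol and 465 in the clenbuterol control. The lowest of the 4 was the one under the EPS control title. The CPM fold was 1.27 (1.23 to 1.31) on 9785 counts under the EPS title and 6976 under the EPS control title, while the TPM fold was 1.23. In CPM plus 1, Psmd8 was the 1 member at least 25% higher and Psmd11 and Psmd5 the 2 members lower, beside 6.55% and 8.97% of all genes. Among genes that reached a TPM of 20 these shares were 4.8% and 5.99%.

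The 250 bases upstream of the RefSeq start of these 3 genes are shown because they had the largest count-based differences in the EPS pair, beside those of Psmb5, whose upstream sequence holds the core of the antioxidant response element that NRF1 and NRF2 bind. Capitals mark TGACNNNGC or CCAAT on either strand, and all sequences are from GRCm38.p6, written 5′ to 3′ on the strand of the gene.
Psmd11, chr11:80428365-80428614, plus strand: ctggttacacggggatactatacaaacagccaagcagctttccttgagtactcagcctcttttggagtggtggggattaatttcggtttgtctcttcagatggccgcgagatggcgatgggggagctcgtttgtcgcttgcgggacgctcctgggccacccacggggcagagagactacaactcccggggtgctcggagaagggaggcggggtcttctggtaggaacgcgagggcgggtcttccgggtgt
Psmd5, chr2:34870963-34871212, minus strand: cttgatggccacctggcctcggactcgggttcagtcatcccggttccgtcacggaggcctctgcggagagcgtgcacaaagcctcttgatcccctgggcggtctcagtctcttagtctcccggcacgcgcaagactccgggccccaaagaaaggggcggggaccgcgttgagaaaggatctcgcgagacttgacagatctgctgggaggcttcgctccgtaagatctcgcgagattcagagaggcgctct
Psmd8, chr7:29180674-29180923, minus strand: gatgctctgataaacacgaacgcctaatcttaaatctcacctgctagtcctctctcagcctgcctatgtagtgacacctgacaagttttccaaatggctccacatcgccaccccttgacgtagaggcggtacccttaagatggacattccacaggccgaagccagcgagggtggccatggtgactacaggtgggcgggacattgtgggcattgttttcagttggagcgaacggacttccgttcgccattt
Psmb5, chr14:54617996-54618245, minus strand: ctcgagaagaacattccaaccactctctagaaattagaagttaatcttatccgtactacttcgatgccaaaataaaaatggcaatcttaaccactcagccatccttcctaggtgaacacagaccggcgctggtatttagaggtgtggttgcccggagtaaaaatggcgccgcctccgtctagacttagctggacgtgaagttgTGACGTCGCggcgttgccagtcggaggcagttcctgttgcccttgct
None of the other 3 sequences holds either motif, and the match in Psmb5 begins 47 bases before the start. A looser form, TGANNNNGC, is not marked. Psmd5 holds it 153 bases before the start, and Psmd8 26 bases after the start, outside the bases shown. Psmd11 does not hold it.

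Promoters from 250 bases before to 50 after the start were in the RefSeq table for 29 of the 36 genes. TGACNNNGC was found in 5 of these 29 genes, 17.2%, beside 16.8% of the 10262 genes in the table that reached a TPM of 1 in any library and 13.99% of all 27025: Psmb5, Psmb6, Psmc6, Psmd9 and Psmd12. The looser TGANNNNGC, which contains every TGACNNNGC match, was found in 17 of 29, 58.6%, beside 47.7% of the expressed genes and 45.0% of all. CCAAT, the box bound by the factor NF-Y, was found in 12 of 29, 41.4%, beside 43.3% of the expressed genes and 41.1% of all. A gene with several promoters in the table counts if any of them holds the motif. Per promoter, TGACNNNGC was in 16.1% of the 31 subunit promoters, beside 14.2% of 13085 of the expressed genes. For TGANNNNGC these shares were 58.1% and 42.6%, and for CCAAT 38.7% and 38.0%. The 29 genes include Psmb11, which was not expressed. The 5 genes with TGACNNNGC had log2 TPM ratios in the EPS pair between -0.05 (Psmc6) and 0.10 (Psmb6), and with clenbuterol between -0.11 (Psmc6) and 0.02 (Psmb5). A match to such short letters is a description of the sequence only.

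Psma3, an α subunit gene on chromosome 12 at 70969283 to 70995877, had the highest TPM ratio of the EPS pair, yet its size differed between the deposited units. Its TPM was 199 under the EPS title and 136 under the EPS control title, with 113.0 under clenbuterol and 109.7 in the clenbuterol control. The TPM fold of the EPS pair was 1.47. The CPM fold on 4691 counts under the EPS title and 4001 under the EPS control title was 1.06 (1.01 to 1.10). The deposited coverage, read here as mean read depth per base, was 86.4 under the EPS title and 73.7 under the EPS control title, and 70.8 with clenbuterol and 69.8 in its control. Coverage follows the counts and is not scaled for library size. FPKM, the other deposited unit corrected for transcript length, was 81.0 under the EPS title and 52.8 under the EPS control title. With clenbuterol it was 45.1, and 44.0 in its control. Over the 4 libraries the TPM of Psma3 ranged 1.82-fold and its CPM 1.147-fold. The deposited table lists 6 transcripts for Psma3, with 1 TPM value for the gene, and the long noncoding RNA gene 3110056K07Rik overlaps it on the opposite strand at 3.11 to 4.32 TPM. How transcripts share its reads was not tested.

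**Figure D3:**
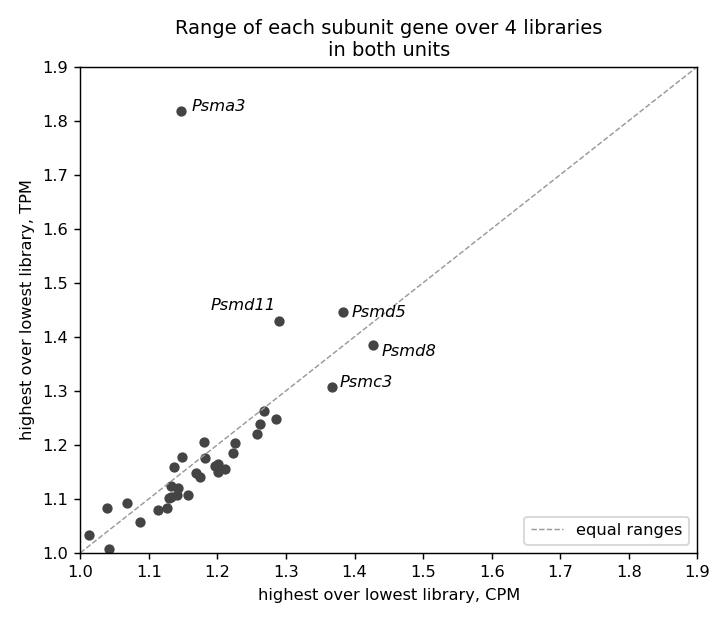
Highest library over lowest library for each expressed subunit gene, in CPM on the x axis and in TPM on the y axis, with a dashed line of equality. Psma3 stands alone far above the line, at 1.82 in TPM and 1.147 in CPM. Psmd11 lies less far above it, at 1.43 in TPM and 1.29 in CPM. Most other genes lie close to the line, Psmd5, Psmd8 and Psmc3 at its upper end.

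All 4 non-catalytic β genes and all 3 expressed catalytic genes had ratios above 0 in the EPS pair by title, in TPM and in CPM, beside 45.4% of all genes in TPM and 51.4% in CPM. Psmb2, which has no proteolytic site, was highest of them at 235 TPM under the EPS title and 195 under the EPS control title, a CPM fold of 1.18 (1.12 to 1.248). Psmb6 had 326 TPM under the EPS title and 304 under the EPS control title, a CPM fold of 1.10 (1.06 to 1.146). Psmb5 and Psmb7 were at 1.07 (1.01 to 1.12) and 1.05 (1.01 to 1.09). Of the 7 expressed α genes 4 were above 0 in TPM and 6 in CPM, beside the same 45.4% and 51.4%. Psma4 and Psma2 were at CPM folds of 1.14 (1.09 to 1.195) and 1.11 (1.07 to 1.16), and Psma7 was lowest at 0.981 (0.943 to 1.02), with 344 TPM under the EPS title and 359 under the EPS control title. Psmb3 had the lowest TPM ratio of the non-catalytic β genes, 439 TPM under the EPS title and 426 under the EPS control title.

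All 3 base subunits without ATPase activity had ratios below 0 in both units, beside 54.6% of all genes in TPM and 48.6% in CPM. Psmd2 had 309 TPM under the EPS title and 340.0 under the EPS control title, and its CPM fold was 0.932 (0.911 to 0.954). Psmd4 had 292 TPM under the EPS title and 322 under the EPS control title, at 0.932 (0.899 to 0.966), and Psmd1, the other large scaffold, had 195 under the EPS title and 208 under the EPS control title, at 0.963 (0.937 to 0.991). The ATPases were split 3 and 3, from Psmc5 at 0.955 (0.9198 to 0.992) to Psmc2 at 1.09 (1.05 to 1.13). Psmc5 had 281 TPM under the EPS title and 301 under the EPS control title, and Psmc2 had 277 under the EPS title and 262 under the EPS control title.

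The 8 lid genes ranged the most. Beside Psmd11 and Psmd8, Psmd3 had 160.1 TPM under the EPS title and 189 under the EPS control title, a CPM fold of 0.871 (0.839 to 0.904). Psmd6, a lid scaffold subunit, had 230.3 TPM under the EPS title and 199.8 under the EPS control title, at 1.18 (1.13 to 1.23), and Psmd14 had 182 TPM under the EPS title and 164 under the EPS control title, at 1.13 (1.08 to 1.19). The assembly chaperones Psmd9 and Psmd10 were at 1.05 (0.962 to 1.145) and 1.095 (1.01 to 1.19), against the lower Psmd5. Psmd10 had 53.2 TPM under the EPS title and 50.02 under the EPS control title.

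By part, the median log2 TPM ratio in the EPS pair was 0.10 over the 14 expressed core genes and -0.05 over the 17 genes of the regulatory particle, beside -0.02 for all genes tested. With clenbuterol both medians were -0.03. Summed TPM of the core was 4196 under the EPS title and 3929 under the EPS control title, while that of the regulatory particle was 4241 under the EPS title and 4263 under the EPS control title. In CPM, 13 of 14 core genes and 8 of 17 regulatory particle genes had ratios above 0, beside 51.4% of all genes. These parts were set side by side with the values known, and the difference between them was not tested. The CPM interval lay above 1 for 19 of all 34 genes, below 1 for 8 and across 1 for 7. Of the 5964 genes with counts in the range of the subunit genes, 31.5% had an interval above 1 and 33.3% below 1. With CPM scaled by library totals, 19 subunit intervals lay above 1 and 5 below. Intervals clear of 1 in opposite directions in the EPS pair and with clenbuterol were found for 5 subunit genes, beside 15.6% of the 5123 genes in that range in both comparisons. Whether cultures of the same condition would differ as much cannot be told from 1 library a group.

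**Figure D4:**
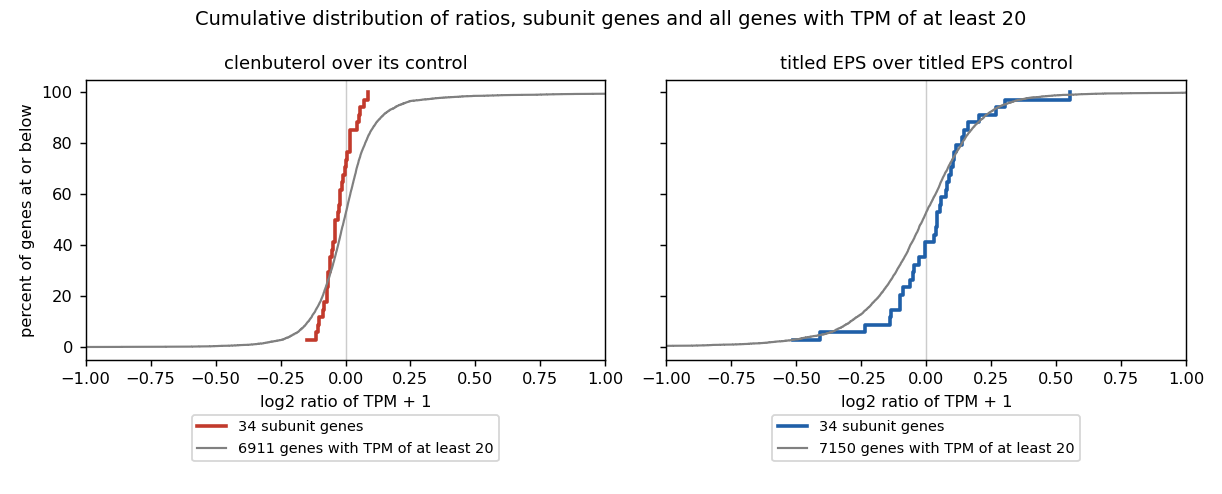
Cumulative percent of genes at or below a given log2 ratio of TPM plus 1, for the 34 expressed subunit genes (thick) and for all genes that reached a TPM of 20 (thin), clenbuterol over its control on the left and EPS over EPS control by title on the right; the axes are limited to -1 to 1. With clenbuterol the subunit genes rise steeply between -0.15 and 0.09. In the EPS pair they reach from -0.51 to 0.55.

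Levels also differed between the culture pairs. In TPM, 19 of the 34 genes were higher in both libraries of the clenbuterol pair than in both of the EPS pair, beside 25.1% of 14213 genes that reached a TPM of 1 in any library. The reverse held for 2 genes, Psma3 and Psmd5, beside 34.7%. Among the 7383 genes that reached a TPM of 20 these shares were 30.1% and 34.6%. In CPM the subunit counts were 22 and 2, beside 29% and 30.7%. In FPKM they were 17 and 2, beside 25.9% and 33.2%. Each pair is 2 cultures, and condition, culture and library cannot be told apart here.

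The 19 genes included all 3 expressed catalytic subunits, 4 of the 6 ATPases (Psmc1, Psmc3, Psmc4 and Psmc5) and all 3 non-ATPase base subunits. Psmc3 had the largest ratio of pair means, 586 TPM in the clenbuterol pair and 461 in the EPS pair, a ratio of 1.27. Next were Psmd8 at 1.21, Psmd9 at 1.21, Psmc4 at 1.197 and Psmd2 at 1.18. Of the 7 expressed α genes, Psma3 separated the pairs in TPM, in the other direction, with a mean of 111 TPM in the clenbuterol pair and 168 in the EPS pair. In CPM, Psma3 did so by less, with 118 under clenbuterol and 113 in its control. Its CPM was 130 under the EPS title and 123 under the EPS control title. Psma5 and Psma6 were in CPM higher in both libraries of the clenbuterol pair. The α gene Psma6 ranged least in TPM, at 224 to 226 in the 4 libraries. In CPM, Psma5 ranged least, 1.013-fold, and Psma6 ranged 1.041-fold.

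The library under the EPS control title held the lowest TPM of the 4 for 18 of the 34 genes, beside 20.7% of all genes, and the highest for 6, beside 32%. The EPS title held the lowest for 9, beside 26.8%, and clenbuterol the lowest for 6, beside 29.4%. The clenbuterol control held the highest for 15, beside 21.4%, and the lowest for 1, beside 23.1%. Clenbuterol held the highest for 6 and the library under the EPS title for 7, beside 19.5% and 27.1%. Of the 7383 genes that reached a TPM of 20, the EPS control title held the lowest for 23.1% and the highest for 29.4%. The clenbuterol control held the lowest for 21.5% and the highest for 21.7%. For the EPS title these shares were 29.4% and 27.8%, and for clenbuterol 26% and 21.1%.

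Other genes of the pathway, 42 in all on 8 lists, gave context for the subunits. They were listed with earlier results of these data known, and 39 passed the filter in each comparison. With clenbuterol 1 of 39 was past the threshold on the higher side and 0 on the lower, beside 5.74% and 6.53% of all genes. In the EPS pair 0 were higher and 3 lower by title, beside 7.51% and 12.6%. In CPM the EPS counts were 1 higher, Psme1, and 1 lower, Ubqln2, beside 6.55% and 8.97%, so Psmg4 and Ddi2 passed in TPM alone.

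The inducible catalytic subunits replace the constitutive ones in cells exposed to interferon. Of their genes, Psmb8 and Psmb9 were nearly or fully silent and Psmb10 was expressed. Psmb9 had 0 counts in all 4 libraries, and Psmb8 had 8 counts with clenbuterol, 0 in its control and 4 under either title of the EPS pair. Psmb10 had 22.8 TPM with clenbuterol and 25.5 in its control, and 26.4 under the EPS title and 26.3 under the EPS control title. Its constitutive counterpart Psmb7 exceeded it in every library. The activator genes Psme1 and Psme2, whose products cap the core without ATP, had the highest ratios of the activator list in both comparisons. Psme1 had 69.0 TPM with clenbuterol and 59.1 in its control, and 77.3 under the EPS title and 61.98 under the EPS control title. Psme4, which encodes a nuclear activator, had 75.5 TPM under the EPS title and 91.5 under the EPS control title. Psme3, of the same list, stood between 91.0 and 94.1 TPM in the 4 libraries. Psmf1, which encodes an inhibitor of the core, stood between 18.5 and 25.2 TPM.

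Among chaperones and bound factors, Pomp, which is consumed as each core matures, was the most abundant chaperone gene at 322 to 341 TPM. Psmg4, a partner in α ring assembly, was at least 20% lower by title with 37.2 TPM under the EPS title and 47.8 under the EPS control title. Psmg1 had the highest EPS ratio of the chaperone list, 0.16 on the log2 TPM scale, with 36.04 TPM under the EPS title and 32.1 under the EPS control title. Of the other regulatory particle genes, Sem1, a small lid subunit, had 362 TPM under the EPS title and 319.7 under the EPS control title, and Adrm1, a ubiquitin receptor, had 176 under the EPS title and 198 under the EPS control title. Usp14 and Uchl5, deubiquitinases that dock on the particle, had log2 TPM ratios of -0.10 and 0.00 in the EPS pair and 0.03 and -0.02 with clenbuterol.

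Shuttle factors, which carry ubiquitinated proteins to the proteasome, were all below 0 in the EPS pair by title, 6 of 6 in TPM and in CPM, beside 54.6% and 48.6% of all genes, with a median log2 TPM ratio of -0.19. Ubqln2 had 28.2 TPM under the EPS title and 37.6 under the EPS control title. Ddi2, the protease that activates NRF1, had 18.4 under the EPS title and 23.5 under the EPS control title. Both were past the threshold in TPM. The segregase gene Vcp, which extracts ubiquitinated proteins and is the most abundant of its list, had 539 TPM under the EPS title and 629.9 under the EPS control title, and 693 with clenbuterol and 677 in its control. Of its cofactors, Nploc4 was lowest in the EPS pair, at 70.1 TPM under the EPS title and 83.2 under the EPS control title, and Ufd1 highest, at 85.9 under the EPS title and 76.9 under the EPS control title. Ubb, a polyubiquitin gene, had 1531 TPM with clenbuterol and 1501 in its control. The ubiquitin-activating enzyme genes were lower, with Uba1 between 251 and 285 TPM and Uba6 between 15.98 and 19.7.

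Nfe2l1, which encodes NRF1, had 393.7 TPM with clenbuterol and 392.4 in its control, and 338 under the EPS title and 415 under the EPS control title. The lowest of the 4 was the one under the EPS title. Nfe2l2, which encodes the related factor NRF2, was the gene past the threshold with clenbuterol, at 162 TPM against 119.8 in its control, from 5754 counts with clenbuterol and 4329 in its control. It had 131 TPM under the EPS title and 123 under the EPS control title. Nfe2l3 had 0 counts in all 4 libraries. Ngly1, whose product processes NRF1, had 30.6 TPM under the EPS title and 28.9 under the EPS control title, and 26.3 with clenbuterol and 28.8 in its control. The NF-Y subunit gene Nfya had 18.7 TPM under the EPS title and 22.6 under the EPS control title, and 15.7 with clenbuterol and 18.0 in its control.

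At the edges of the other lists with clenbuterol, the assembly chaperone genes Psmg2 and Psmg3 had log2 TPM ratios of 0.11 and -0.08, and the shuttle genes Ddi2 and Rad23b of 0.19 and -0.06. Among the VCP cofactors Faf1 was at 0.12 and Nsfl1c at -0.16, and Uba6 was lowest of the ubiquitin and E1 genes at -0.23. In the EPS pair Ubqln1 was the highest shuttle gene at -0.11, Rps27a the highest ubiquitin gene at 0.13 and Nfyc the highest of the factor genes at 0.13. None of these 10 ratios was past the threshold.

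**Figure D5:**
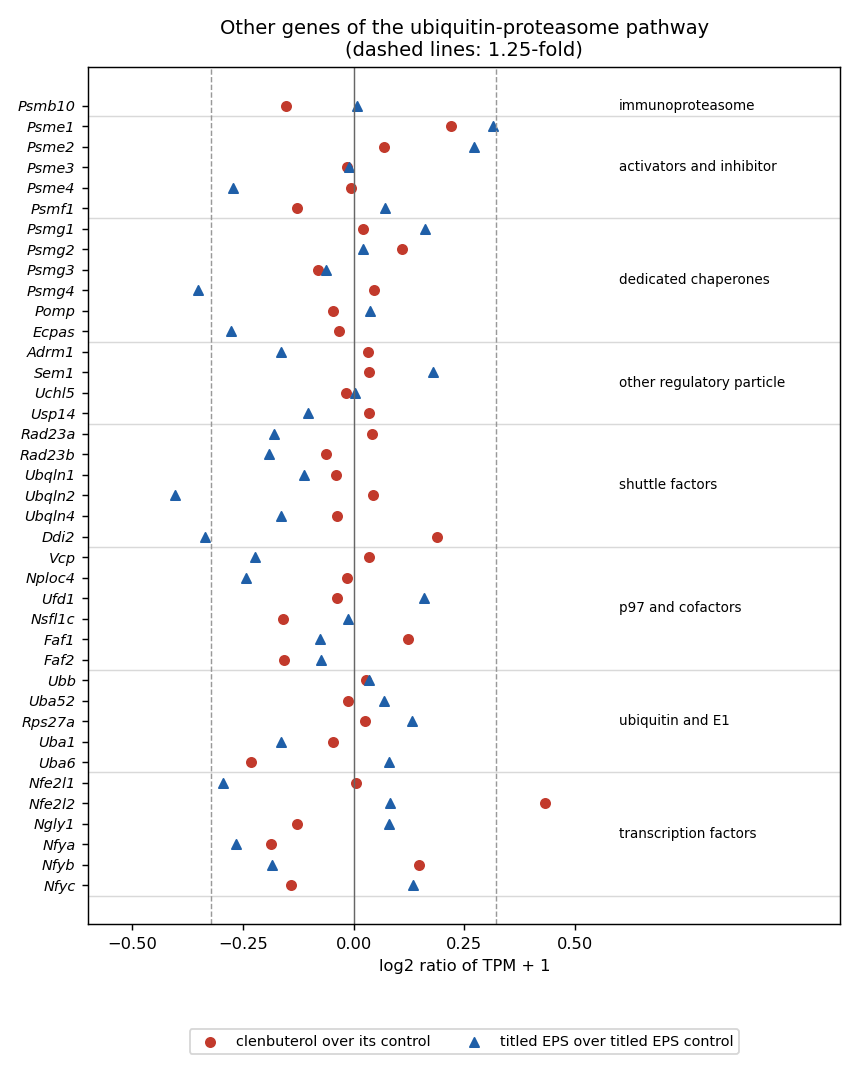
Log2 ratio of TPM plus 1 for 39 further genes of the ubiquitin-proteasome pathway that passed the filter, by list, with Ddi2 shown once among shuttle factors. Circles are clenbuterol over its control, triangles EPS over EPS control by title, and dashed lines mark 25% higher and 20% lower. Nfe2l2 lies past the upper line with clenbuterol, and Ubqln2, Psmg4 and Ddi2 past the lower line in the EPS pair.

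Some subunit values carry limits of the annotation. The deposited tables list a gene that overlaps Psmd13 on the same strand, the pseudogene Gm15542, at 19.1 to 22.1 TPM, and reads of the 2 may have been split. Psmd10 overlaps Atg4a on the opposite strand at 24.2 to 35.9 TPM, and Psmd1 contains Htr2b on the opposite strand at 14.1 to 17.5 TPM. Whether counting used strand is not stated.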

How the data were processed

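RNA of 4 C2C12 myotube cultures was sequenced with a stranded mRNA kit, per the labels' protocols. Reads were aligned with HISAT2 to mm10, per the submitters' processing notes (the sources used here do not give the counting program, annotation or strand setting). The authors deposited estimated counts, FPKM and TPM for 45777 genes in a joint table and coverage, FPKM and TPM per library. The deposited expected counts were whole numbers and were used as estimates; how they were made is not stated. The joint table's columns carry data names and were assigned to samples by the data name of the processed file recorded for each sample.

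With 1 library per group no test was run. The main value was log2 of the ratio of TPM plus 1 for genes reaching a TPM of 1 in either library of the pair. Calls used 25% higher or 20% lower, and 2-fold. CPM were counts divided by TMM-scaled library sizes (edgeR 4.0.16, R 4.3.3), with exact Clopper-Pearson 95% intervals on the share of counts. These cover counting error only. The interval code was tested on simulated data. Python 3.11.15, numpy 2.4.6, pandas 2.3.3, scipy 1.17.1 and matplotlib 3.10.9 were used. Promoters came from a RefSeq table of GRCm38.p6, searched on both strands for TGACNNNGC, TGANNNNGC and CCAAT. Of 43 pathway genes 42 were found by symbol; Paaf1 was not used here, and 1 further gene of the planned lists is not reported here.

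The members and gene lists were chosen with earlier results of these data known. Every member could be named; values were given for the catalytic, most and least abundant and tissue-restricted subunits, the highest and lowest ratio of each part of the complex in each comparison and the 3 highest and 3 lowest of all members. Of the other lists, Nfe2l1, the highest and lowest member of each list with measured members and every gene past the threshold were named. Alternatives were pseudocounts, filters, FPKM, CPM by 3 scalings, centring, the single-library tables, the data names of the EPS pair and a narrower set of members. A planned comparison of protein sequences was not made.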

Additional observations from a re-analysis of the deposited data

Results flagged for a closer look

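For 5 subunit genes the CPM ratio went in opposite directions in the 2 comparisons, with both 95% counting intervals clear of 1. That is 5 of 34, beside 15.6% of the genes with counts in the range of the subunit genes, so the share is near that over all such genes. The difference between the comparisons was not tested, as each rests on 1 library a group, and it holds for the EPS titles only. Psmd8 was at 0.972 with clenbuterol (0.946 to 1.000) and 1.27 by title in the EPS pair (1.23 to 1.31). Its upper bound with clenbuterol, 0.99986, lies at the edge, and with median-of-ratios scaling the interval reached 1, which leaves 4 genes. With library totals 8 genes met the rule, Psma1, Psmd8 and Psmd14 among them and Psmd3 and Psmc5 not. Psmd14 was at 0.953 with clenbuterol (0.913 to 0.996) and 1.13 in the EPS pair (1.08 to 1.19). Psma1 was at 0.914 with clenbuterol (0.865 to 0.965) and 1.10 in the EPS pair (1.04 to 1.155). Psmd3 went the other way, at 1.05 with clenbuterol (1.02 to 1.10) and 0.871 in the EPS pair (0.839 to 0.904), as did Psmc5, at 1.05 (1.01 to 1.09) and 0.955 (0.9198 to 0.992). If instead the data names are correct, all 5 went the same way in both comparisons.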

How the results depend on the processing

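With clenbuterol the median log2 ratio of the subunit genes lay between -0.04 and -0.0028 under all alternatives run, and 0 genes were past the threshold under each of them. In the EPS pair the median was 0.04 in TPM, 0.08 in CPM and 0.10 in FPKM, beside -0.02, 0.01 and 0.03 for all genes tested. With the data names the TPM median was -0.043. The count of genes past the threshold was 3 in TPM and 5 in FPKM, 3 higher and 2 lower; it was 2 when both TPM and CPM had to pass, without Psma3, a rule chosen after seeing the data. No gene past the threshold changed direction, apart from the data names, which turn every EPS direction round. FPKM and CPM by library totals each moved 19 of 34 EPS ratios by more than the half-width of the counting interval. With library totals, chosen after seeing the data, the CPM interval lay above 1 for 1 and below 1 for 12 subunit genes with clenbuterol and below 1 for 5 in the EPS pair, and 8 genes had intervals clear of 1 in opposite directions. No gene reached 2-fold under any alternative run. The spread between cultures is unknown, so ratios near 1 cannot be read as equal. No paired analysis was possible because each group holds 1 library.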
